A study of Mus musculus with 8 samples.

Results

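The comparison described here set the liver transcriptome at the end of the subjective night against that of its middle, 6 h earlier in the cycle. Of the 8 polyadenylated RNA libraries of the study, 4 were chosen by their collection time in hours of circadian time (CT): CT23 and CT47 represent phase CT23, the end of the subjective night, and CT41 and CT65 represent phase CT17, its middle. All came from WT C57/BL6 mice that were entrained for a week to 12 h of light and 12 h of darkness and were then kept in constant darkness for 1 day before collection, so the 2 phases differed by design in collection time alone. RNA from 3 animals was pooled in equal parts for each library, each time was sampled once, and the labels give no age. The libraries 24 h apart therefore stood in as replicates of a phase, and the p-values below measure the spread between single pools and not between animals. The step of 6 h was sampled directly only between CT41 and CT47, while CT23 and CT65 were the first and the last collection of the series.

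In the circadian clock of mammals, BMAL1 (encoded by Arntl) pairs with CLOCK or with its close relative NPAS2 and activates genes that carry E-boxes. Among these genes are the period and cryptochrome repressors, which feed back on that pair, and the REV-ERB repressors, which compete with the ROR activators over Arntl and Npas2. In liver this loop, together with feeding and glucocorticoid rhythms, times the genes of lipid, sterol and drug metabolism, and in nocturnal mice the subjective night is the active and feeding period.

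The 4 libraries were of like depth, with 6952586 to 7551903 reads in the genes represented (levels are given in RPKM, reads scaled for transcript length and depth) and 21.0 to 22.7% of the reads of exons and introns in introns. Library CT35 of phase CT11 stood apart at 14387684 reads and 16.0%, so that phase was left out of the fit. Hepatocyte markers dominated all 4 libraries, with 26546 and 32472 RPKM of Alb, the gene of serum albumin, at CT23 and CT47 and 41268 and 28593 RPKM at CT41 and CT65. None of the markers of other liver or blood cell types was called. In pooled tissue, a smaller number of cells of a type and less RNA per cell cannot be told apart. Each library had a sequencing lane of its own, per the file names, so lane and time cannot be told apart.

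Of 10855 genes with enough reads, 7 (0.0645%) differed between the phases at an adjusted p below 0.05 (limma, Benjamini-Hochberg over all genes tested). Npas2 and Nufip2 rose at phase CT23 (0.0184% of genes), and Per1, Per2, Lcn2, Saa2 and Gm16573 fell (0.0461%). The same 2 against 5 became 2 against 9 once the libraries were rescaled by TMM. At an unadjusted p below 0.05 there were 849 genes (7.82%), 589 of them higher (5.43%) and 260 lower (2.4%) at phase CT23. This split depended on scaling, since TMM rescaling, which moved the median log2 difference of all genes to about 0.00 against 0.09 on the deposited scale, gave 346 higher and 492 lower. Tested as reads recovered from the RPKM values, 35 genes (0.322%) were called by edgeR, 5 of the 7 among them, and 86 of 9592 (0.897%) by DESeq2, and 20 of 11483 (0.174%) were called in limma when the transcript with the most reads stood for the gene. A difference of at least 2-fold without overlap between the phases was found in 42 higher genes (0.387%) and 48 lower genes (0.442%).

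**Figure D1:**
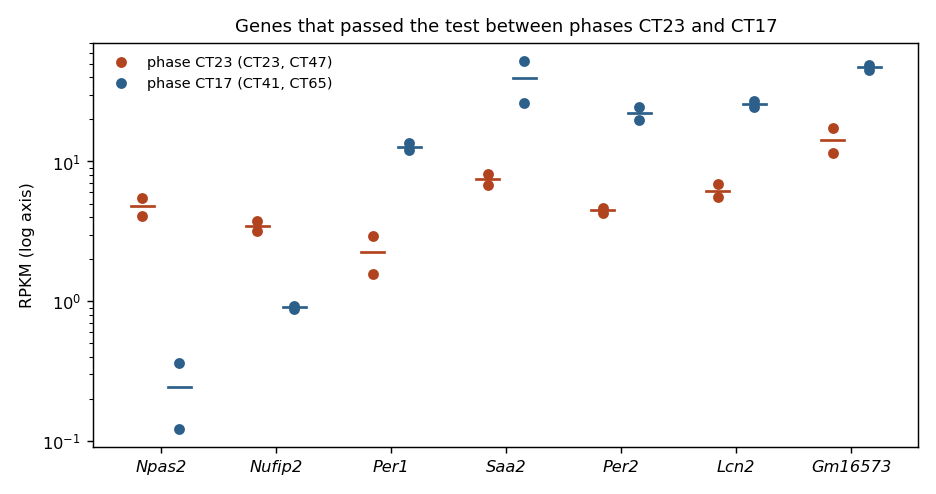
RPKM (log axis) of the 7 called genes in each library, with phase CT23 (CT23 and CT47, red) left of phase CT17 (CT41 and CT65, blue) and a bar at each mean. Npas2 and Nufip2 lay higher in both libraries of phase CT23, the other 5 genes lay lower, and in none of the 7 did the libraries of the phases overlap.

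Npas2, the partner of BMAL1 that can stand in for CLOCK, showed the largest difference of the genes called. It had 5.48 and 4.08 RPKM at CT23 and CT47, against 0.123 and 0.362 RPKM at CT41 and CT65. The log2 difference was 2.84 ± 0.33 (SE), with an adjusted p of 0.0180. Over the whole series it was high in these 2 libraries of phase CT23, followed by 0.895 RPKM at CT29, and at or below 0.362 RPKM in the other 5. Reads across its splice junctions, counted separately in the same libraries, numbered 202 and 155 at CT23 and CT47 and 7 and 12 at CT41 and CT65 (edgeR, log2 difference 4.11, adjusted p = 0.0295). Its introns held 0.169 and 0.142 reads per kilobase and depth unit at CT23 and CT47, against 0.0192 and 0.0534 at CT41 and CT65, a log2 difference of 1.28 ± 0.19 (SE) that did not pass (adjusted p = 0.0937). The call on the gene was lost without CT23 (adjusted p = 0.161), without CT47 (0.101) or without CT41 (0.0815), and in edgeR's test of the recovered reads (0.204).

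The period genes Per1 and Per2, repressors of the BMAL1 pair, ran the opposite way. Per1 had 1.58 and 2.92 RPKM at CT23 and CT47, against 13.5 and 12.1 RPKM at CT41 and CT65, and fell by 2.31 ± 0.28 (SE) on the log2 scale (adjusted p = 0.0180). Per2 had 4.67 and 4.31 RPKM at CT23 and CT47, against 24.5 and 19.9 RPKM at CT41 and CT65, and fell by 2.18 ± 0.26 (adjusted p = 0.0180). The phases did not overlap for either gene. On the log2 scale, the widest gap between libraries within these 2 phases was that of Per1 at CT23 and CT47. The 2 genes differed in where they peaked. Per2 was highest of the 8 libraries at CT41, with CT65 next, whereas Per1 was highest at CT59, a phase CT11 library, with 24.1 RPKM. Junction reads gave adjusted p-values of 0.00460 for Per1 and 0.000438 for Per2 (edgeR). Intron levels of Per1 were 0.410 and 0.777 at CT23 and CT47 and 2.80 and 2.36 at CT41 and CT65, and those of Per2 were 0.326 and 0.275 and then 0.776 and 0.699 in the same order of libraries. Neither intron difference passed its test (adjusted p = 0.148 and 0.190). Without CT23 or without CT41 the calls on Per1 (adjusted p = 0.0638 and 0.0672) and Per2 (0.0767 and 0.0815) were lost, and that on Per2 also without CT47 (0.101).

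Promoters of the called genes were read from RefSeq (GRCm38.p6), from 250 bases before to 50 after the annotated start. Of the 7 genes, 6 had a promoter in that table, and 3 of these held one of the motifs searched on both strands. Per2 had none in that table, so its promoter was not searched. The motifs were the E-box CACGTG, which is in 7.15% of the 32851 windows of that length, its variant CACGTT (4.68%), the D-box TTATGTAA or TTACGTAA (1.06%) and the ROR element TAGGTCA or TGGGTCA (6.45%). Also searched were the CRE TGACGTCA (1.79%), the NF-kappaB consensus in its 3 most used forms (0.341%) and ACANNNTGT, the core spacing of glucocorticoid receptor sites (6.85%). CACGTG reads the same on both strands, and no 2 matches overlapped. The windows with a match follow, with the match in capitals. The upstream of 2 Per1 starts has an E-box 166 bases before it, and the Lcn2 and Gm16573 windows have ACANNNTGT 152 and 178 bases before the start. A match is a description of the sequence and not a binding site.
Per1, chr11:69098699-69098998, plus strand: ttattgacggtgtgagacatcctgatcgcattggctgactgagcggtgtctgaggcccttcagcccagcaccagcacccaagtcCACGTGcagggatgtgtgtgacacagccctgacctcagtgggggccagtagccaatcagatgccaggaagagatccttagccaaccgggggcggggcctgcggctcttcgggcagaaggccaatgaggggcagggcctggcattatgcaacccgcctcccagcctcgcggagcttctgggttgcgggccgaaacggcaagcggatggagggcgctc
Lcn2, chr2:32387690-32387989, minus strand: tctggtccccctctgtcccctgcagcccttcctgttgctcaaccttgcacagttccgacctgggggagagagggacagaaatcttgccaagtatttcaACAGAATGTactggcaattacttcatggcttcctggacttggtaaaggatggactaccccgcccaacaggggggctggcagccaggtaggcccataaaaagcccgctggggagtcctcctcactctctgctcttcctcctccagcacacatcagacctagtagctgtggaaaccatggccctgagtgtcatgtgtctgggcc
Gm16573, chr14:56620464-56620763, minus strand: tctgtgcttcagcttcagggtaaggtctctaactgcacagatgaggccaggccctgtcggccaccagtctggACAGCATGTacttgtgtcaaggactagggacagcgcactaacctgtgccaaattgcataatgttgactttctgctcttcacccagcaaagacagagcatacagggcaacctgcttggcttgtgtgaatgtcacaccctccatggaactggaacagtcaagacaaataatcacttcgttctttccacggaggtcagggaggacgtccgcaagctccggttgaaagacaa

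Of the 25 genes of the clock list, 24 had enough reads. Limma called 1 higher and 2 lower. The phases did not overlap in 5 higher and 13 lower genes, and after TMM rescaling in 3 and 13. Among all genes tested, 27.9% did not overlap on the higher side and 11.1% on the lower side, and after TMM rescaling 19.1% and 18.6%. The counts without overlap in every list below are to be read against these shares. The median log2 difference was -0.37 in the list, against 0.09 over all genes.

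Among the activators, Arntl had 11.6 and 12.8 RPKM at CT23 and CT47 and 6.45 and 9.08 RPKM at CT41 and CT65, a log2 difference of 0.64 (adjusted p = 0.653). Clock had 7.25 and 5.73 RPKM at CT23 and CT47 and 4.17 and 4.97 RPKM at CT41 and CT65, a difference of 0.46. Both lay higher in both libraries of phase CT23, with smaller differences than Npas2, and neither passed. After TMM rescaling the phases of Clock overlapped. The ROR activator gene Rora had 7.48 and 7.69 RPKM at CT23 and CT47 and 5.77 and 6.27 RPKM at CT41 and CT65, a difference of 0.31 (adjusted p = 0.757).

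Among the repressors, Per3 had 0.545 and 0.466 RPKM at CT23 and CT47, against 4.18 and 2.22 RPKM at CT41 and CT65 (log2 difference -1.83 ± 0.29, adjusted p = 0.0850). It passed in edgeR on reads (adjusted p = 0.00172) and under TMM rescaling (0.0495). Ciart, a repressor of the BMAL1 pair also called Chrono, had 0.757 and 0.765 RPKM at CT23 and CT47 and 4.82 and 3.45 RPKM at CT41 and CT65 (log2 difference -1.86, adjusted p = 0.135 in limma and 0.0333 in edgeR). Cry2 had 3.09 and 4.99 RPKM at CT23 and CT47 and 7.64 and 6.94 RPKM at CT41 and CT65, a difference of -0.81 (adjusted p = 0.516). Its paralog Cry1 was at -0.20, Bhlhe41 at -0.05 and Nr1d1, which encodes REV-ERB alpha, at 0.11, and the phases of the last 2 overlapped. Bhlhe40 had 19.8 and 18.8 RPKM at CT23 and CT47 and 34.2 and 33.2 RPKM at CT41 and CT65, and Nr1d2 had 1.09 and 1.003 RPKM against 1.92 and 1.62 RPKM in the same libraries.

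The D-box factors form an output arm in which DBP, TEF and HLF activate and NFIL3 represses. Dbp had 0.671 and 1.07 RPKM at CT23 and CT47, against 8.43 and 3.51 RPKM at CT41 and CT65 (log2 difference -2.14 ± 0.46, adjusted p = 0.225), and 56.2% of its transcript overlaps Sphk2 on the other strand. Tef had 4.57 and 6.41 RPKM at CT23 and CT47 and 17.8 and 12.5 RPKM at CT41 and CT65 (difference -1.38, adjusted p = 0.225). Hlf, the clock gene of highest RPKM, had 79.3 and 71.2 RPKM at CT23 and CT47 and 107 and 112 RPKM at CT41 and CT65. Its model has 245 bases, and neither its introns nor its junctions were tested. Nfil3 ran at 0.29, the other way from Dbp, Tef and Hlf, and its phases overlapped after TMM rescaling. The deubiquitinase gene Usp2 had 3.36 and 4.98 RPKM at CT23 and CT47 and 14.2 and 10.9 RPKM at CT41 and CT65. None of these passed in limma, and edgeR on reads called Tef (adjusted p = 0.0152) and Usp2 (0.0212). The kinases Csnk1d and Csnk1e, at -0.10 and -0.17, and the ubiquitin ligase subunit gene Fbxl21, at 0.24, had overlapping phases.

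**Figure D2:**
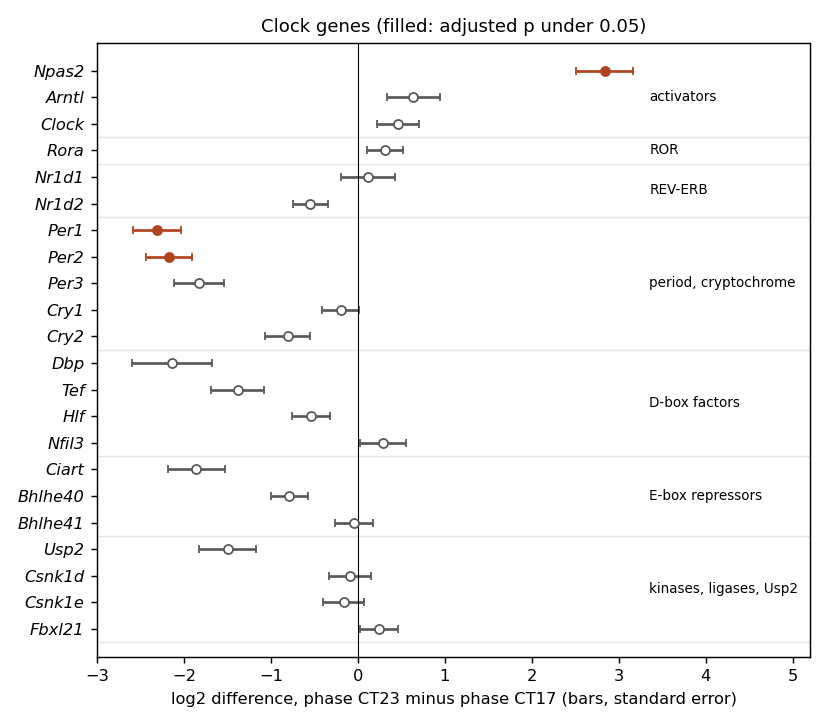
Log2 difference, phase CT23 minus phase CT17, of the clock genes named, grouped by role, with bars for the standard error and filled points for adjusted p below 0.05. Npas2 stands alone at 2.84, while the period genes, Dbp, Ciart, Usp2 and Tef lie between -2.31 and -1.38.

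Lists of the genes known to be driven through these elements overlapped in part with the clock list. Of 18 genes tested that are driven through E-boxes or D-boxes, limma called Per1 and Per2 lower and none higher. On the recovered reads edgeR called 6 and DESeq2 11, all lower. Both libraries of phase CT23 were below both of phase CT17 in 14 of the 18 and above them in none, with a median of -0.88. Wee1, a mitotic kinase gene, had 0.696 and 0.635 RPKM at CT23 and CT47 and 1.83 and 1.69 RPKM at CT41 and CT65. Nampt, of NAD synthesis, had 3.77 and 4.25 RPKM at CT23 and CT47 and 7.58 and 6.21 RPKM at CT41 and CT65. The most abundant members, Por and Alas1, were at -1.07 and -0.64, and Alas1 had overlapping phases and the sign 0.13 without CT41. Of the 13 genes tested that are driven through ROR elements, limma called Npas2 higher and none lower, and the median was 0.44. Both libraries of phase CT23 were above in 7 of 13 and below in 3, against 27.9% and 11.1% of all genes. After TMM rescaling these counts were 5 and 3. On the recovered reads, edgeR called 1 member higher and 1 lower, and DESeq2 2 higher and 1 lower.

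Elovl3, an elongase of very long chain fatty acids in this list, had 120 and 156 RPKM at CT23 and CT47, against 39.9 and 63.2 RPKM at CT41 and CT65. Its gene-level difference of 1.44 ± 0.27 did not pass in limma (adjusted p = 0.155) and was called by edgeR (0.0336) and DESeq2 (0.000312) on reads. Its junction reads, 1127 and 1485 at CT23 and CT47 and 390 and 522 at CT41 and CT65, did (edgeR, log2 difference 1.39, adjusted p = 0.00711), but not without CT23 (0.0769), CT47 (0.144) or CT41 (0.328). Elovl5, of polyunsaturated fatty acid elongation, had 177 and 220 RPKM at CT23 and CT47 and 115 and 108 RPKM at CT41 and CT65 (0.82, adjusted p = 0.411). Its model has 346 bases. Its junction reads overlapped, at 44 and 44 in CT23 and CT47 and 31 and 52 in CT41 and CT65 (-0.03), and its introns were at -0.53. Pitx3, which overlaps the Elovl3 transcript at one end on the other strand, had 10.9 and 14.7 RPKM at CT23 and CT47 and 3.79 and 5.91 RPKM at CT41 and CT65.

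**Figure D3:**
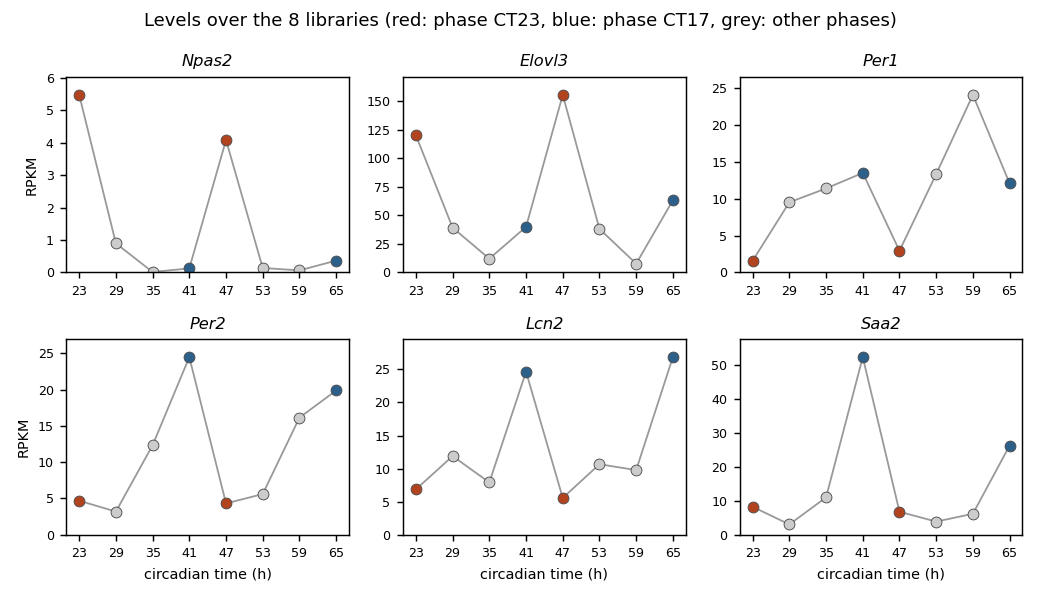
RPKM of Npas2, Elovl3, Per1, Per2, Lcn2 and Saa2 in the 8 libraries by circadian time in hours, with phase CT23 in red, phase CT17 in blue and the other phases in grey. Npas2 and Elovl3 peak at CT23 and CT47, Per2 at CT41 and CT65, and Lcn2 and Saa2 are highest at CT41 and CT65.

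Lcn2 and Saa2, which encode the secreted acute phase proteins lipocalin 2 and serum amyloid A2, fell at phase CT23. Lcn2 had 6.84 and 5.55 RPKM at CT23 and CT47, against 24.7 and 26.9 RPKM at CT41 and CT65 (log2 difference -1.98 ± 0.21, adjusted p = 0.0180). Saa2 had 8.19 and 6.74 RPKM at CT23 and CT47, against 52.3 and 26.2 RPKM at CT41 and CT65 (-2.24 ± 0.31, adjusted p = 0.0353). In the 4 libraries of the other phases Lcn2 ranged from 7.89 to 11.9 RPKM and Saa2 from 2.998 to 10.96 RPKM, so for both genes CT41 and CT65 were the high ones in the series. Junction reads gave the same direction (edgeR, adjusted p = 0.00140 for Lcn2 and 0.00106 for Saa2), and also for Saa1, at 52 and 98 reads in CT23 and CT47 and 341 and 236 reads in CT41 and CT65 (adjusted p = 0.00226). Saa1 and Saa2 are close paralogs, and how reads common to both were assigned is not given. The call on Lcn2 was lost without CT47 (adjusted p = 0.0758), and that on Saa2 without CT23 (0.136), CT47 (0.233) or CT41 (0.0815).

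In the acute phase list of 19 genes tested, these 2 were called in limma, 8 lay lower and 4 higher without overlap, and the median was -0.19. Saa4, a constitutive relative, had 236 and 194 RPKM at CT23 and CT47, against 427 and 572 RPKM at CT41 and CT65 (-1.21, adjusted p = 0.206 in limma and 0.0163 in edgeR). Its junction reads overlapped, at 460 and 643 in CT23 and CT47 and 482 and 784 in CT41 and CT65 (edgeR, -0.33, adjusted p = 0.870). The fibrinogen chains lay the other way. Fgb had 1831 and 2364 RPKM at CT23 and CT47 and 1393 and 1294 RPKM at CT41 and CT65, Fgg differed by 0.50 and Fga by 0.47, and none passed. Neutrophil markers, of which 3 were in the tables, had too few reads to be tested and summed to 0.658 and 1.31 RPKM at CT23 and CT47 and 0.361 and 0.949 RPKM at CT41 and CT65. The 6 Kupffer cell markers, of the resident macrophages, summed to 60.2 and 76.1 RPKM at CT23 and CT47 and 76.3 and 56.8 RPKM at CT41 and CT65, with overlapping phases in 6 of 6, and their most abundant members Clec4f and Cd5l were at 0.03 and 0.16.

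The other 2 genes called rest on short transcript models. Nufip2, an RNA-binding protein gene, was represented by a model of 388 bases with 3.76 and 3.20 RPKM at CT23 and CT47 and 0.882 and 0.929 RPKM at CT41 and CT65 (log2 difference 1.499 ± 0.20, adjusted p = 0.0353). Its transcript with the most reads gave 0.46 and an adjusted p of 0.538, and edgeR on its reads gave an adjusted p of 0.241. Gm16573, a predicted gene of 285 bases of which 21.1% overlaps Parp4 on the other strand, had 17.2 and 11.4 RPKM at CT23 and CT47 and 45.3 and 48.8 RPKM at CT41 and CT65 (-1.71 ± 0.24, adjusted p = 0.0449). Both calls were lost when any of the 4 libraries was left out, with adjusted p-values of 0.0512 to 0.171 for Nufip2 and 0.0524 to 0.233 for Gm16573.

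The junction reads, tested over 7354 genes, called 13 (0.177%), of which 4 were higher (0.0544%) and 9 lower (0.122%) at phase CT23. Besides Npas2 and Elovl3, Crot and Id3 rose. Crot, which moves medium chain acyl groups out of peroxisomes, had 1115 and 1363 junction reads at CT23 and CT47 and 426 and 522 at CT41 and CT65 (log2 difference 1.26, adjusted p = 0.0101). Id3, an inhibitor of basic helix-loop-helix factors, had 70 and 87 at CT23 and CT47 and 15 and 22 at CT41 and CT65 (1.95, adjusted p = 0.0295), and its relative Id2 had 51.5 and 52.9 RPKM at CT23 and CT47 and 24.9 and 26.2 RPKM at CT41 and CT65 (adjusted p = 0.225 in limma and 0.0199 in DESeq2). Besides the period, Saa and Lcn2 genes, those that fell included Frmd4b, St3gal5 and Lpin1. St3gal5, the GM3 ganglioside synthase, had 258 and 278 junction reads at CT23 and CT47 and 677 and 529 at CT41 and CT65 (-1.29, adjusted p = 0.0312). Frmd4b, a scaffold protein gene, had 199 and 258 at CT23 and CT47 and 511 and 534 at CT41 and CT65 (-1.33, adjusted p = 0.0101). At gene level these 3 lower genes did not overlap between the phases and did not pass in limma, while edgeR on reads called Frmd4b (adjusted p = 0.0159) and St3gal5 (0.0339) and DESeq2 called all 3. The junction call on Per2 held without each of the 4 libraries. Those on Crot (adjusted p = 0.108 to 0.388), Frmd4b (0.0969 to 0.232) and St3gal5 (0.262 to 0.515) were lost without CT23, CT47 or CT41, and those on Id3 (0.0762 to 0.497) and Npas2 (0.0793 to 0.497) without any of the 4. Saa1 was lost without CT23 (0.108) or CT41 (0.0969), Saa2 without CT23 (0.0668) or CT47 (0.0760), Lcn2 without CT47 (0.0964) and Per1 without CT41 (0.0969).

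Genes of lipid and sterol synthesis were examined because the liver synthesizes both in a daily rhythm. Of 26 fatty acid and triglyceride genes none was called at gene level in limma, 5 were called by edgeR on reads (1 higher and 4 lower) and 7 by DESeq2, 12 lay lower and 5 higher without overlap, and the median was -0.26. Lpin1, which converts phosphatidic acid to diacylglycerol, had 4.67 and 4.88 RPKM at CT23 and CT47 and 39.0 and 12.0 RPKM at CT41 and CT65 (log2 difference -2.07 ± 0.42, adjusted p = 0.206), and its 2 libraries of phase CT17 were far apart. Its junction reads, 122 and 125 at CT23 and CT47 and 1110 and 411 at CT41 and CT65, were called (edgeR, adjusted p = 0.0377), though not without CT23 (0.2499) or CT47 (0.407). Elovl6, of long chain saturated fatty acids, had 8.08 and 9.43 RPKM at CT23 and CT47 and 25.1 and 21.3 RPKM at CT41 and CT65 (-1.36 ± 0.22, adjusted p = 0.0930), and passed in edgeR on reads (0.00172) and under TMM rescaling (0.0400).

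Fasn, the fatty acid synthase gene, had 297 and 230 RPKM at CT23 and CT47, against 527 and 525 RPKM at CT41 and CT65 (-1.01, adjusted p = 0.246), and was called in edgeR on reads (0.0339). Thrsp, a lipogenic regulator, had 88.7 and 194 RPKM at CT23 and CT47 and 632 and 299 RPKM at CT41 and CT65 (-1.73, adjusted p = 0.272). Lpin2, Gpam and Pnpla3 lay lower too, at -1.39, -0.74 and -0.97, while Scd1, the most abundant member at a mean of 1918 RPKM, was at 0.08 with overlapping phases. Srebf1, the gene of their activator SREBP-1, had overlapping phases, with 128 and 170 RPKM at CT23 and CT47 and 262 and 132 RPKM at CT41 and CT65. Among the higher ones was Insig2, which retains SREBP in the endoplasmic reticulum, with 41.9 and 62.9 RPKM at CT23 and CT47 and 26.6 and 23.1 RPKM at CT41 and CT65 (1.04, adjusted p = 0.276).

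The 23 cholesterol genes tested had 4 members lower and 1 higher without overlap and a median of -0.07, and under TMM rescaling 10 were lower. Insig1, a target of SREBP, had 35.9 and 37.5 RPKM at CT23 and CT47 and 69.2 and 55.2 RPKM at CT41 and CT65, and Mvd was at -0.75. The abundant Sc5d was at 0.10. In the bile acid list of 17 genes 5 lay higher and 3 lower, against 27.9% and 11.1% of all genes. Abcb11, the bile salt export pump, was at 0.69, Slc10a1 at -0.39 and Slc27a5 at -0.14. No gene of either list was called in limma. Of the cholesterol list, edgeR on reads called 1 gene, DESeq2 3 and the junction test 1, all lower, and of the bile acid list none. DESeq2 called Insig1 (adjusted p = 0.00407) and Mvd (0.0460).

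**Figure D4:**
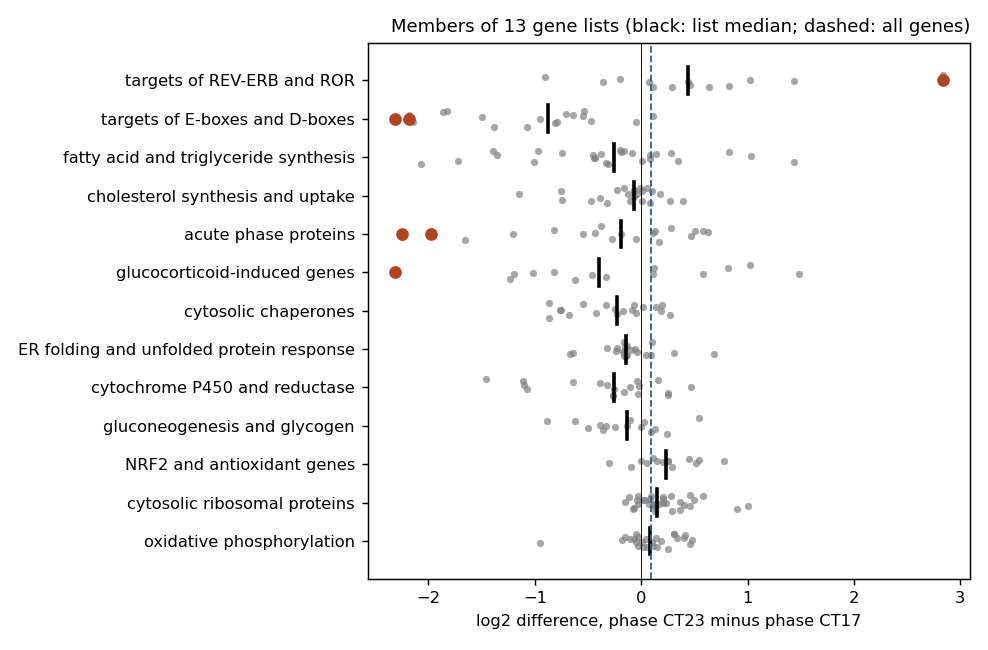
Log2 difference, phase CT23 minus phase CT17, of the members of 13 lists, with a black bar at each list's median, red for adjusted p below 0.05 and a dashed line at the median of all genes, 0.09. The E-box and D-box list lies lowest at a median of -0.88, and the REV-ERB and ROR list lies highest at 0.44.

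Cytosolic chaperones, which fold proteins and respond to heat and to the daily temperature cycle, had 10 of 19 members lower and 1 higher without overlap, a median of -0.23 and no call in limma or edgeR, with 5 genes at an unadjusted p below 0.05 in limma and 3 called by DESeq2. Hspa8, the constitutive HSP70, had 381 and 260 RPKM at CT23 and CT47 and 677 and 490 RPKM at CT41 and CT65 (-0.87, adjusted p = 0.527 in limma). Its junction reads overlapped, at 926 and 706 in CT23 and CT47 and 1243 and 879 in CT41 and CT65 (edgeR, adjusted p = 0.877). Hsp90ab1 had 280 and 336 RPKM at CT23 and CT47 and 485 and 416 RPKM at CT41 and CT65, and Hsp90aa1 had 26.5 and 46.5 RPKM against 51.3 and 69.4 RPKM in the same libraries. Hsph1, Hspa4l and Stip1 were at -0.76, -0.87 and -0.68. The chaperones of the endoplasmic reticulum, 21 genes at a median of -0.15, had 4 lower and 2 higher (9 and 2 after TMM rescaling), with the abundant Calr at -0.09 and Hsp90b1 at -0.16 overlapping.

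Genes known to be induced by glucocorticoids lay on both sides. Of 14 tested, Per1 was called in limma, and 8 lay lower and 5 higher without overlap, against 11.1% and 27.9% of all genes. After TMM rescaling 8 lay lower and 3 higher, against 18.6% and 19.1%. Fkbp5, a cochaperone of the receptor, had 1.95 and 2.99 RPKM at CT23 and CT47 and 7.59 and 5.35 RPKM at CT41 and CT65 (-1.23, adjusted p = 0.272 in limma and 0.0295 in edgeR), and Tsc22d3 had 13.8 and 23.9 RPKM at CT23 and CT47 and 43.2 and 32.0 RPKM at CT41 and CT65. Tat, tyrosine aminotransferase, was at -0.62. The metallothionein gene Mt2, in contrast, had 8.43 and 7.95 RPKM at CT23 and CT47 and 1.69 and 3.89 RPKM at CT41 and CT65 (1.49, adjusted p = 0.480), Mt1 was at 0.81 and overlapped after TMM rescaling, and Cdkn1a, the cell cycle inhibitor p21, had 10.9 and 8.81 RPKM at CT23 and CT47 and 3.67 and 5.66 RPKM at CT41 and CT65.

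In drug and glucose metabolism no member of the lists was called by limma. Of 19 cytochrome P450 and reductase genes 7 lay lower and none higher without overlap, at a median of -0.26. Cyp2b10, an inducible drug-metabolizing P450, had 10.2 and 16.0 RPKM at CT23 and CT47 and 44.4 and 29.03 RPKM at CT41 and CT65 (-1.46, adjusted p = 0.210), and passed in edgeR on reads (0.0212). Por, the reductase that supplies the P450 enzymes with electrons, had 228 and 236 RPKM at CT23 and CT47 and 587 and 407 RPKM at CT41 and CT65, Cyp2a5 was at -1.11, and the abundant Cyp2e1 and Cyp3a11 were at -0.39 and 0.47. In gluconeogenesis and glycogen, 7 of 15 lay lower and 1 higher. Gys2, liver glycogen synthase, had 65.6 and 82.3 RPKM at CT23 and CT47 and 145 and 129 RPKM at CT41 and CT65. Its model has 314 bases. Its junction reads overlapped, at 24 and 31 in CT23 and CT47 and 45 and 30 in CT41 and CT65 (edgeR, adjusted p = 0.850). Ppp1r3c, which targets a phosphatase to glycogen, was at 0.54 and Fbp1 at 0.02.

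Among the other metabolic lists, none had a call in limma. In these and the following lists, the counts without overlap are read against 27.9% of all genes higher and 11.1% lower, or 19.1% and 18.6% after TMM rescaling. Of 17 glycolysis genes 4 lay lower and 3 higher, and after TMM rescaling 7 and 2. Pklr, the liver pyruvate kinase gene, of which 19.6% overlaps Hcn3 on the other strand, had 119 and 85.6 RPKM at CT23 and CT47 and 225 and 196 RPKM at CT41 and CT65 (-1.05, adjusted p = 0.248), and edgeR (0.0359) and DESeq2 (0.000337) on reads called it. Eno1 was at -0.31. Of 22 fatty acid oxidation genes 2 lay lower and 2 higher, with Fabp1 at 0.11 and overlapping. Of 19 conjugation enzymes 7 lay higher and 3 lower, with Gstm1 at 0.37 and Gsta3 at -0.37. Of 14 NRF2 and antioxidant genes 3 lay higher and none lower, among them Gclc, of glutathione synthesis, at 0.78, with Cat at -0.31 and Gpx1 at about 0.00 overlapping. Of 24 urea cycle and amino acid genes 5 lay lower and 2 higher. Cbs, which makes cystathionine from homocysteine, had 163 and 147 RPKM at CT23 and CT47 and 84.4 and 82.1 RPKM at CT41 and CT65 (0.89, adjusted p = 0.309 in limma and 0.0166 in DESeq2), with Ass1 at -0.39 and Hpd at -0.49. Of 26 oxidative phosphorylation genes 2 lay higher and 2 lower, with Atp5b at 0.11 and Atp5a1 at -0.05.

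The lists of cellular upkeep and signalling had no call in limma either. Of 32 cytosolic ribosomal protein genes 6 lay higher and none lower on the deposited scale, a smaller share on the higher side than over all genes, at a median of 0.15, with Rpl4 at 0.02 and Rplp0 at 0.23. Of 18 autophagy genes 7 lay higher and 3 lower, and after TMM rescaling 3 and 3, with Gabarapl1, which DESeq2 called (adjusted p = 0.0113), at 0.93, with Lamp1 at 0.07 and Lamp2 at 0.16. Of 18 RNA-binding protein genes 8 lay higher and 3 lower, with Srsf2 at -0.19, and of 11 tubulin and actin genes 4 lay higher and 3 lower (3 and 4 after TMM rescaling), with Tubb2a at 0.70, Actg1, which DESeq2 called (0.0109), at -0.84, Tuba4a at 0.11 and Actb at 0.14. Of 17 insulin and IGF genes 5 lay lower and 2 higher, with Igfbp1, which DESeq2 called (0.0216), at -1.19, Igf1 at -0.06 and Igfbp4 at -0.24, and of 13 amino acid transporters 4 lay higher and 1 lower (1 and 2 after TMM rescaling), with Slc38a3 at 0.06, Slc38a4 at 0.09 and Slc43a1, which edgeR called (0.0339), at -1.10. Of 12 cell cycle genes 3 lay higher and 2 lower (1 and 2 after TMM rescaling), and DESeq2 called Wee1 (0.0414), with Ccnd1 at -0.23 and Ccng1 at 0.20. Of 10 immediate early genes 2 lay higher and 2 lower, with Jund at -0.93 and Dusp1 at -0.82, while Egr1 had 17.2 and 5.58 RPKM at CT23 and CT47 and 2.59 and 1.90 RPKM at CT41 and CT65 (1.93, adjusted p = 0.374).

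Markers of the cell types were as follows. The 7 hepatocyte markers had 3 lower and none higher without overlap and a median of -0.23, with Alb at -0.23 and Apoa1 at -0.08. Of 6 endothelial markers 1 lay lower, with Clec4g at -0.18 and Stab2 at -0.06, and of 6 stellate cell markers 2 lay higher and 1 lower, with Dcn at 0.06 and Des at -0.09. Of 4 cholangiocyte markers tested 1 lay higher (after TMM rescaling 1 lay lower), with Sox9 at 0.67 and Spp1 at 0.18. Of 2 erythroid markers tested 1 lay higher, with Alas2 at 0.45 and Hba-a1 at 0.13. Of the Alas2 model, 51.8% overlaps Apex2 on the other strand. Alas2 junction reads overlapped, at 23 and 27 in CT23 and CT47 and 23 and 18 in CT41 and CT65. The 3 lymphocyte markers tested all lay higher at phase CT23, and Ptprc overlapped after TMM rescaling. Cd79a of B cells had 2.32 and 1.29 RPKM at CT23 and CT47 and 1.03 and 0.978 RPKM at CT41 and CT65. The 6 lymphocyte markers summed to 4.35 and 3.05 RPKM at CT23 and CT47 and to 2.18 and 2.48 RPKM at CT41 and CT65. Their part in other results was not tested.

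Unspliced RNA was read from introns that overlap no exon, in 5809 genes. None passed at an adjusted p below 0.05 (limma), and 495 (8.52%) had an unadjusted p below 0.05. The intron differences of Per1, Per2 and Saa2, at -2.09, -1.17 and -2.50, and of Npas2, at 1.28, had the sign of the gene. Per3 introns held 0.147 and 0.214 reads per kilobase and depth unit at CT23 and CT47, against 1.54 and 0.795 at CT41 and CT65 (-2.35 ± 0.33, adjusted p = 0.0937). Elovl3 introns, in contrast to its exons, had overlapping phases, with 26.7 and 23.9 at CT23 and CT47 and 10.9 and 26.6 at CT41 and CT65 (0.57, adjusted p = 0.738).

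**Figure D5:**
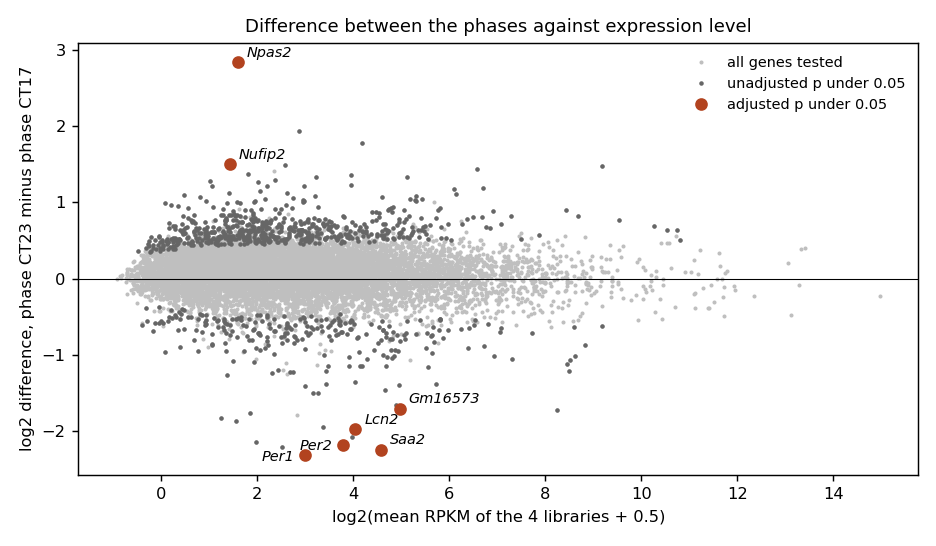
Log2 difference, phase CT23 minus phase CT17, of the 10855 genes tested against log2 of the mean RPKM of the 4 libraries plus 0.5. The 7 called genes are in red, genes with an unadjusted p below 0.05 in dark grey and the rest in light grey.

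The 2 phases were then placed within the cycle of 4 phase means on the deposited scale. These include phase CT11 with library CT35, which was left out of the fit. How far the shares depend on that library or on the scaling was not tested. Among the 589 genes higher at an unadjusted p below 0.05, phase CT17 was the lowest of the 4 phase means in 474 (80.5%) and phase CT23 the highest in 295 (50.1%). Among all 7029 genes with a higher mean log2 value these shares were 66.4% and 30.1%. Among the 260 lower ones phase CT17 was the highest in 166 (63.8%) and phase CT23 the lowest in 148 (56.9%), against 39.7% and 46.5% of all 3826 lower genes. These shares are descriptions, since they read the same 4 libraries as the comparison.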

How the data were processed

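Liver polyadenylated RNA of 8 circadian times was sequenced as 1 library per time, and 4 libraries form the comparison. Per the submitters' processing notes the genome build was mm9. The deposited transcript tables give values named min and max per the file headers, which behave as RPKM, and the lower one was used. The deposited junction tables give whole-number counts of reads across splice junctions found by RUM, per the file headers. The quantifying program, RUM version, strand setting and handling of shared reads are not stated in any source used.

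A gene was represented by its transcript with the largest summed value. The RPKM came out as whole reads, within 0.1 read, for 99.79 to 99.92% of values per library, and gene reads numbered 6518444 to 7573114, or 14387684 at CT35. Of 115699 transcripts, 68.89% matched a gene name in the GRCm38.p6 annotation. Genes with 20 reads in at least 2 of the 8 libraries were tested with limma 3.58.1 (R 4.3.3; trend and robust) on log2(RPKM + 0.5), in a fit of 6 libraries (phases CT23, CT5 and CT17; 3 residual degrees of freedom), two-sided, with Benjamini-Hochberg adjustment. That scale understates changes of low genes. Introns used reads per kilobase and depth unit plus 0.05 in the same fit, and junction counts used edgeR 4.0.16 (quasi-likelihood, TMM). edgeR and DESeq2 1.42.0 on the recovered reads were alternatives. The tests were tested on simulated data.

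The members and the 34 gene lists, which were written down with earlier results of these data known, support nothing by their choice. Named genes were all called genes of at least 2 RPKM without overlap, all clock genes tested, and in each list the called members and the 2 most abundant uncalled ones. The other genes named were chosen after their values were seen. Results on some genes are not reported here.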

Additional observations from a re-analysis of the deposited data

How the results depend on the processing

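The number of genes called, 7, was 0 without the filter on low reads (1230 genes at an unadjusted p below 0.05 in limma). It was 15 with a filter of 100 reads, 11 with TMM rescaling and also with equal medians, and 4 with all 8 libraries. A term for the first against the second library of each phase gave 18. On the recovered reads the number was 35 in edgeR and 86 in DESeq2. With the transcript with the most reads standing for the gene, an alternative chosen after seeing the data, 20 were called. Of the 7 genes, 5 were among the 35, 6 among the 86 and 6 among the 20. Leaving out 1 library at a time gave 2 to 12 genes, with 12 without CT65. Intron calls, 0 in the reported fit, were 15 without the filter, 20 with a filter of 100 reads and 14 with all 8 libraries, and 0 to 5 with 1 library left out. Junction calls, 13, were 24 in DESeq2, 73 without the filter, 6 with all 8 libraries and 38 in the 4 libraries alone, and 3 to 22 with 1 library left out. The causes were not tested, and the fits that leave 1 library out also hold fewer libraries.

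In the fit of all 8 libraries the calls on Per1 and Saa2 (adjusted p = 0.0909 each) and Gm16573 (0.195) were lost, and with a pseudocount of 0.1 those on Npas2 (0.0813) and Gm16573 (0.0539). None of the genes called changed sign under any of the 21 settings, and 36 of the 153 named genes did under at least 1. Genes lower without overlap, 1206, were 2015 with TMM rescaling and 1962 with equal medians. The labels give no replicate numbers. The one block fitted was the first library of each phase (CT23, CT29 and CT41) against the second (CT47, CT53 and CT65). It placed CT41 and CT47 in different blocks. The spread rests on 3 residual degrees of freedom and 2 pools per phase, and CT23 and CT65, at the ends of the series, do not separate phase from a drift over the collection. With hours as a linear term 9 genes were called.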

Other observations

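Outside the lists, several more genes had no overlap between the phases, and those named here were chosen after their values were seen. Osgin1, an oxidative stress response gene, had 1178 and 549 RPKM at CT23 and CT47, against 267 and 312 RPKM at CT41 and CT65 (log2 difference 1.48, adjusted p = 0.225 in limma). Spon2, of a secreted matrix protein, had 5.01 and 5.48 RPKM at CT23 and CT47 and 1.72 and 2.06 RPKM at CT41 and CT65 (1.27, adjusted p = 0.0932), and Sort1, a sorting receptor gene, was at 0.91. Csad, of taurine synthesis, and Aox3, an aldehyde oxidase gene, lay higher too, at 1.17 and 1.19.

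On the lower side, Mfsd2a, which encodes a transporter of lysophosphatidylcholine, had 0.721 and 1.78 RPKM at CT23 and CT47, against 15.2 and 3.27 RPKM at CT41 and CT65 (-2.21, adjusted p = 0.362). Hcn3, of which 17.8% overlaps Pklr on the other strand, had 40.7 and 19.6 RPKM at CT23 and CT47 and 70.4 and 78.6 RPKM at CT41 and CT65 (-1.38). Acsl3, an acyl-CoA synthetase gene, was at -1.15 on a model of 502 bases. Its transcript with the most reads gave -0.63 (limma, adjusted p = 0.314). Its junction reads were few, at 12 and 14 in CT23 and CT47 and 17 and 22 in CT41 and CT65 (edgeR, adjusted p = 0.876). Gss, of glutathione synthesis, was at -1.14, and 15.2% of its model overlaps Acss2 on the other strand. Its transcript with the most reads gave -0.74. Its junction reads lay the other way, at 120 and 107 in CT23 and CT47 and 88 and 96 in CT41 and CT65. Gclc of the same glutathione pathway, a member of a list, was at 0.78. None of the genes named here passed in limma. By edgeR on the recovered reads Spon2 (adjusted p = 0.0262), Gss (0.0152) and Acsl3 (0.0339) were called.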
